A study of Mus musculus with 22 samples.

Results

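Galectins are lectins that bind beta-galactosides, the galactose-bearing ends of sugar chains on glycoproteins. The 8 genes described here were taken by name, by a rule that used no measured value: Lgals1, Lgals2, Lgals3, Lgals4, Lgals7, Lgals8 and Lgals9, and Lgals3bp, whose product is a secreted glycoprotein bound by galectin-3 and is not itself a galectin. They were 8 of the 31053 genes counted. Levels are given in CPM, the unique molecular identifiers (UMIs, each a captured transcript) of a gene scaled to a common total of UMIs per library, or per class of cells in a library. Because the libraries count the 3′ ends of transcripts, CPM does not scale with transcript length.

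The study asked whether the sodium leak channel Nalcn regulates the shedding of cells from solid organs into the blood of mice. All mice carried Prom1-CreERT2, a tamoxifen-inducible Cre recombinase driven by the Prom1 promoter, and the Rosa26ZSG reporter, on mixed B6/FVB/N backgrounds. Recombination, and with it ZsGreen (ZSG) and deletion of the conditional Nalcn allele, is thereby limited to Prom1-expressing cells and their progeny. Single-cell RNA libraries came from ZSG+ sorted blood cells of mice without tumours (ntCZC), from hashtagged pools of kidney, liver, lung, stomach and either epididymis or uterus (tissue), and from peripheral blood mononuclear cells (PBMC).

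The ntCZC libraries comprised 2 labelled Nalcn-wt (both male), 4 labelled Nalcn-het (3 male) and 4 labelled Nalcn-null (1 male). The tissue libraries comprised 5 wt (3 male), 2 het (both male) and 2 null (1 male), and 2 further tissue libraries, whose titles and strain entries named different genotypes, entered no comparison. Mice of both kinds were aged 551 to 654 days, and the single wt PBMC library came from a male of 120 days. The labels do not say whether libraries came from different mice, or whether a blood and an organ library shared a mouse. Several libraries of a label had equal age and sex, among them ntCZC wt replicate 1 and tissue wt replicates 1 and 2, so shared mice are possible. The p-values therefore measure only the spread between libraries. The organ of a tissue barcode was not used here.

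The 22 libraries held 50 to 621 barcodes and 161541 to 2600526 UMIs each in ntCZC, 1856 to 27857 barcodes and 8571019 to 139793927 UMIs in grouped tissue, and 752 barcodes and 1422144 UMIs in PBMC. Libraries shared at most 2.60% of the barcodes of the smaller library. A group of 3 libraries stood apart: ntCZC wt replicate 3, in which haemoglobin took 73.5% of UMIs and 11 of 77 barcodes passed the quality filter, tissue wt replicate 2, which is described below, and tissue null replicate 3, labelled female but holding both Y-linked transcripts (31.2 CPM) and Xist (1347 CPM). Nalcn itself had 0 UMIs in all ntCZC and PBMC libraries, and in tissue it ran from 0 to 0.204 CPM in wt, from 0.104 to 0.158 CPM in het, and was 0.272 and 0.386 CPM in null, so its counts did not serve as a check of the genotype labels. Since a library sums many cells, fewer cells of a type and less RNA per cell cannot be told apart in it.

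As background, galectins are made in the cytosol, leave cells by an unconventional route without a signal peptide, and cross-link glycoproteins at the cell surface into lattices. Galectin-1, galectin-2 and galectin-7 carry a single sugar-binding domain, galectin-4, galectin-8 and galectin-9 carry a pair of them in tandem, and galectin-3 joins its domain to a flexible tail through which it can oligomerise. Galectin-3 is long known as a macrophage antigen (Mac-2) and gathers at damaged lysosomes, galectin-1 dampens T cell responses, galectin-8 senses ruptured vacuoles, galectin-9 is a ligand of the inhibitory receptor Tim-3, and galectin-2, galectin-4 and galectin-7 are known mainly from epithelia.

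On mm10, Lgals1 lies on chromosome 15 from 78926725 to 78930465 and Lgals2 on the same chromosome from 78850860 to 78855529. Lgals3 lies on chromosome 14 from 47367751 to 47386160, Lgals4 and Lgals7 close together on chromosome 7 from 28833854 to 28841708 and from 28863853 to 28866284, and Lgals8 on chromosome 13 from 12439415 to 12464944. Lgals9 and Lgals3bp lie on chromosome 11, from 78962974 to 78984946 and from 118392751 to 118402092. Lgals2 overlaps Cdc42ep1, Lgals7 overlaps Gm10648 and Lgals8 overlaps Heatr1, each on the opposite strand. Reads of Lgals4 can be shared with its near-identical paralog Lgals6, which was not analysed here, so Lgals4 levels are uncertain in that respect.

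The bases upstream of the start site were read for 7 of the 8 genes from RefSeq (GRCm38.p6). Those of Lgals2 and Lgals4 are printed because the contrast between blood and organs described below turns on these genes, both highest in gastric mucous-like cells. Both lines give 250 bases ending at the base before the start site, 5′ to 3′ on the gene's strand. Lgals2 is chr15:78855530-78855779 on the minus strand and Lgals4 is chr7:28833544-28833793 on the plus strand. Capitals mark the only match, on the opposite strand, to a searched motif.
Lgals2: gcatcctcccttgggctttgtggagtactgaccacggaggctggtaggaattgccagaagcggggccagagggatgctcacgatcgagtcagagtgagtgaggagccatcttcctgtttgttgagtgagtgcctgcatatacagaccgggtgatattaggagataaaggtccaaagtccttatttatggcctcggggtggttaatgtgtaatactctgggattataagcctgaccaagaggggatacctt
Lgals4: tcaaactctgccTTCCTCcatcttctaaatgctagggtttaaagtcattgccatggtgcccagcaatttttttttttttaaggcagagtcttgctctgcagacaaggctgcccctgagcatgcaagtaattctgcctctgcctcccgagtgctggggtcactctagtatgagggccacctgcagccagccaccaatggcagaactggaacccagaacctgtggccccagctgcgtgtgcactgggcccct

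The motifs searched on both strands were TATAAA, held by 12.4% of 32851 promoters of this length, the GC box GGGCGG (32.7%), the AP-1 site TGANTCA (6.75%), the E-box CACGTG (6.02%), the PU.1 core GAGGAA (23.3%) and the HNF4 motif CAAAGTCCA (0.384%). Lgals4 held the PU.1 core at -238 and Lgals2 held none of these letters. Lgals3 and Lgals7 each held a GC box, at -7 and -197, and Lgals9 held the PU.1 core at -244 and -199. Lgals3bp and Lgals8 held none. These matches are descriptions of letters and carry no measurement of binding.

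Between library kinds, Lgals2, Lgals4 and Lgals7 were at or near 0 in ntCZC and low but present in every tissue library, whereas Lgals3 was abundant in most libraries of both. These 3 of the 8 genes did not overlap between kinds, beside 16.2% of 25796 detected genes that were lower in every ntCZC library than in every tissue library. A count of 0 in the shallow ntCZC libraries allows up to 18.6 CPM in wt replicate 3 and 8.86 CPM in null replicate 3. It allows up to 8.08 CPM in het replicate 2 and 3.15 CPM in het replicate 1. For Lgals7, which was as low as 1.17 CPM in tissue, these libraries could not show a level under every tissue library. Nor could wt replicate 1, the deepest ntCZC library without a UMI of Lgals7, where a count of 0 allows up to 1.59 CPM. For Lgals4, which was as low as 4.11 CPM in tissue, only het replicate 1 among them could show such a level. The pooled ratios below therefore carry the comparison.

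Lgals2 had 0 UMIs in 9 of 10 ntCZC libraries and 4.99 CPM in ntCZC null replicate 1. In tissue it was 36.1, 8.26, 66.4, 46.0 and 29.5 CPM in wt replicates 1 to 5, 20.8 and 85.6 CPM in het, and 76.2 and 22.4 CPM in null, with a mean of 43.5 ± 27 CPM (SD, n = 9). The 7 ntCZC UMIs sat in 2 barcodes of a single library whose leading markers were those of fibroblasts and of smooth muscle, with 3 markers each. Pooled over libraries, tissue held 63.0 times the ntCZC level (95% exact interval 30.6 to 157, counting error only). That ratio rests on ntCZC null replicate 1. The 9 ntCZC libraries at 0, taken by themselves, had a floor of 3 counts over 11987254 UMIs, against which tissue was at least 132-fold higher, a bound that leaves out the library with counts and does not cover all 10.

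Lgals4, a galectin of the gut lining, had 16 UMIs in all of ntCZC, from 0 to 2.14 CPM with 3 libraries at 0. In tissue it ran from 4.11 to 12.8 CPM (mean 9.08 ± 3.01 CPM, SD, n = 9), 6.34 times the pooled ntCZC level (3.90 to 11.1). Lgals7, a galectin of stratified epithelia, had 1 UMI in each of 2 ntCZC libraries and 1.17 to 5.24 CPM in tissue, 17.6 times as much (4.85 to 145). The ratio of Lgals7 rests on these 2 UMIs and depends on both libraries. PBMC held 0 UMIs of Lgals2 and of Lgals7 and 4 UMIs of Lgals4 (2.81 CPM), so the only blood library without the ZSG sort was also at or near 0 for these genes. PBMC held fewer UMIs than ntCZC wt replicate 1 (1422144 against 1883480), where a count of 0 allows up to 1.59 CPM. A count of 0 in PBMC therefore could not show Lgals7 under every tissue library. A count of 0 over its 752 barcodes allows a share of barcodes with a UMI of up to 0.399%. This limit covers counting error only, at a median of 1837.5 UMIs per barcode, and is no limit on cells that make the transcript.

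The ranges of Lgals3 overlapped between the kinds. It was 1585 and 6.19 CPM in ntCZC wt, 813, 738, 164 and 1137 CPM in ntCZC het, and 417, 1376, 550 and 703 CPM in ntCZC null (replicates in order). In tissue it was 635, 3376, 424, 288 and 194 CPM in wt, 578 and 450 CPM in het, and 557 and 351 CPM in null, and in PBMC it was 146 CPM. The haemoglobin-rich ntCZC wt replicate 3 was lowest of all and tissue wt replicate 2 highest. The means were 749 ± 505 CPM (SD, n = 10) in ntCZC and 762 ± 991 CPM (n = 9) in tissue, and 435 ± 152 CPM (n = 8) in tissue without wt replicate 2.

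The other members overlapped between kinds. Lgals1 ran from 24.8 to 465 CPM in ntCZC (mean 156 ± 124) and from 104 to 789 CPM in tissue (216 ± 217, or 144 ± 32.9 without wt replicate 2), and was 293 CPM in PBMC. Lgals8 was 33.8 ± 11.6 CPM in ntCZC and 28.8 ± 4.65 CPM in tissue, and Lgals9 was 38.9 ± 12.3 and 44.6 ± 15 CPM. Lgals3bp was 47.7 ± 33.1 CPM in ntCZC, with its highest values of 120 and 74.7 CPM in null replicate 1 and het replicate 3, against 46.0 ± 21.3 CPM in tissue. PBMC held 28.1 CPM of Lgals8, 31.6 CPM of Lgals9 and 18.3 CPM of Lgals3bp.

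Across all genes, 66% of 11905 passed edgeR's quasi-likelihood test at a Benjamini-Hochberg adjusted p of 0.05, 27.5% as higher and 38.5% as lower in ntCZC, and 2 of the 7 members tested passed, Lgals2 and Lgals4. Both passed the filter on low counts through their tissue libraries, so they could only come out as lower, and nothing is read from this count. Lgals2 differed by -6.43 ± 0.78 on the log2 scale (SE) and Lgals4 by -3.02 ± 0.36, given as descriptions, and Lgals7 did not reach the filter. Without ntCZC null replicate 1 the fitted value of Lgals2 was -13.26, which depends on the prior count and is no bound. The log2 difference of Lgals3 was 0.10 ± 0.49 (adjusted p = 0.872, 95% interval -0.86 to 1.07). Leaving out the 3 libraries that stand apart, a choice made after seeing the data, gave 0.85 (adjusted p = 0.0067), higher in ntCZC. Of 8 alternative settings this was the only 1 in which Lgals3 passed, and 4 of the 8 kept the sign of the main fit. Lgals9 differed by -0.27 ± 0.21 (adjusted p = 0.262). It was lower in all 8 alternative settings and passed the test in 3 of them. These were DESeq2's scaling within edgeR (-0.49, adjusted p = 0.038), DESeq2 itself (-0.49, adjusted p = 0.033) and the 20% limit on mitochondrial UMIs (-0.50, adjusted p = 0.047). The scaling moved the median of all genes from -0.13 to -0.37.

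**Figure D1:**
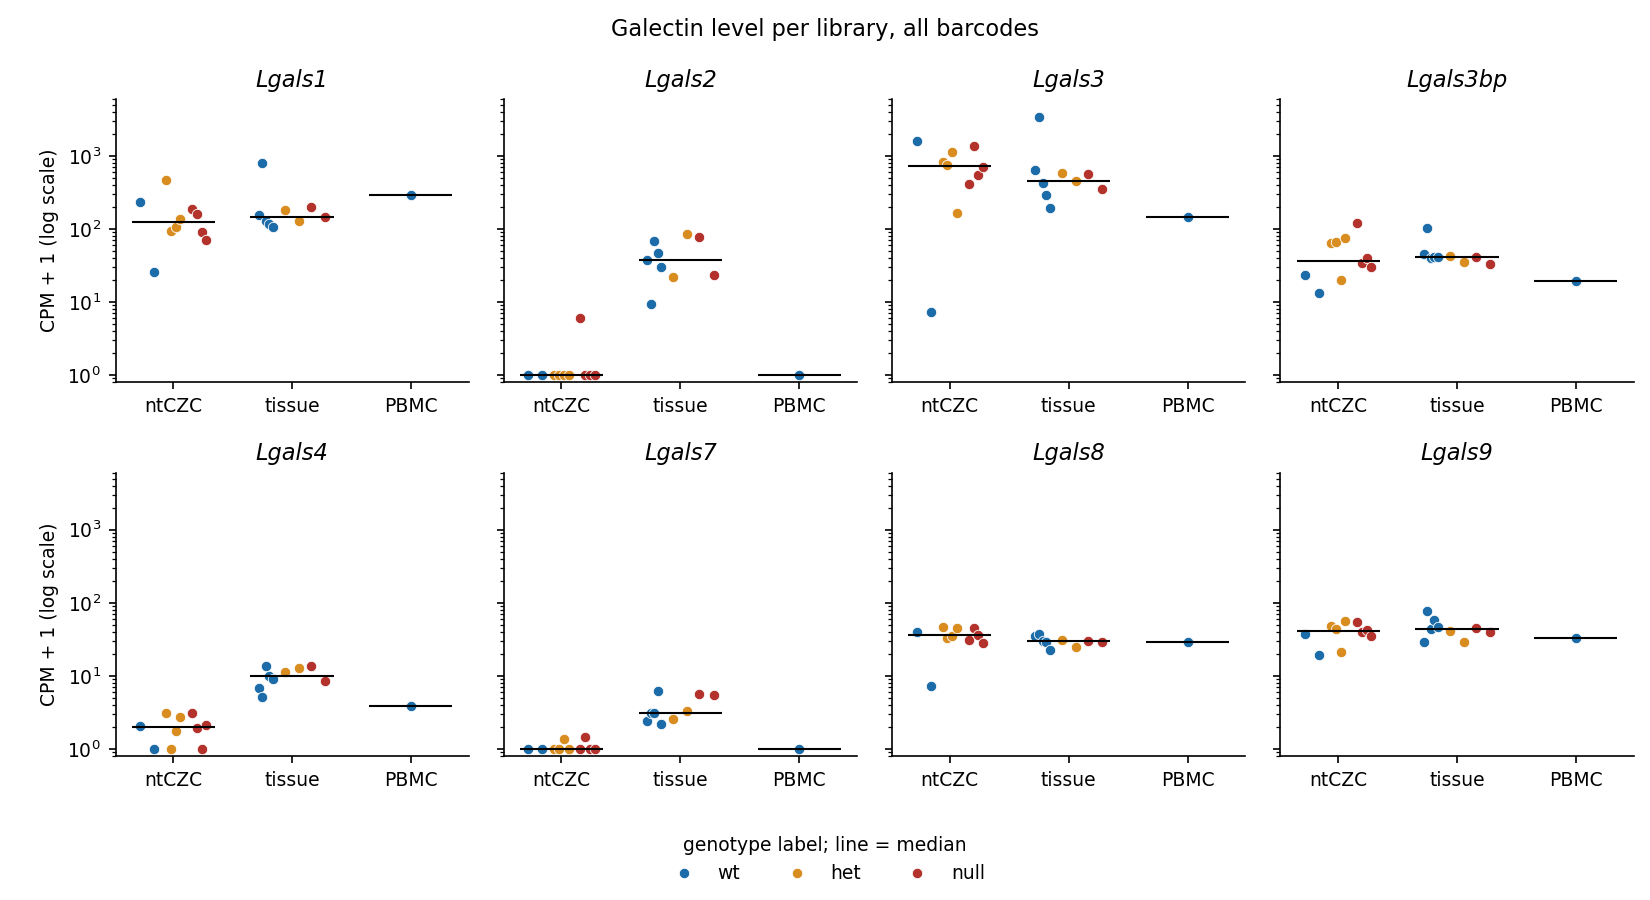
Level of each of the 8 genes in every grouped library, as CPM + 1 on a log axis, by library kind, with points coloured by genotype label and a line at the median of each kind. Lgals2, Lgals4 and Lgals7 lie lower in all 10 ntCZC libraries than in all 9 tissue libraries, and a single tissue wt library, replicate 2, lies above the rest for Lgals3 at 3376 CPM. For Lgals7, a count of 0 in ntCZC allows more than the lowest tissue level. The same holds for Lgals2 and Lgals4 in ntCZC wt replicate 3 and null replicate 3.

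Shares of barcodes with at least 1 UMI did not always follow the order of the CPM means, and the median depth per barcode ran from 325 to 6892 UMIs in ntCZC and from 893 to 4161 UMIs in grouped tissue. Lgals3 was detected in 48.1 ± 22.7% of ntCZC barcodes (1.30% to 73.7%) and 28.0 ± 18.7% of tissue barcodes (13.8% to 75.3%), and in 6.12% of PBMC barcodes. Lgals1 was detected in 23.7 ± 10.5% and 20.3 ± 11%. The shares of both genes were higher in ntCZC while their mean CPM was higher in tissue. Without tissue wt replicate 2 both the shares (22.1% and 16.9% in tissue) and the mean CPM were higher in ntCZC. Lgals2 was detected in 3.07 ± 2.05% of tissue barcodes.

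Cells were next compared within marker-gated classes, each called X-like when a barcode held at least 3 of the markers fixed for X and at least 2 more than for any other class. No galectin was among those markers. In monocytes of the blood and organs, Lgals3 was high everywhere, and nonclassical monocyte-like cells, the patrolling Ly6c-low type, held less of it than classical ones. In nonclassical monocyte-like cells the ntCZC libraries were close to each other, at 1253, 1239 and 1323 CPM in het, 1286, 1168 and 1181 CPM in null and 1297 CPM in wt (mean 1249 ± 58.4 CPM, n = 7). The tissue libraries were at 883 and 677 CPM in het, 650 CPM in null, and 908, 1587, 741 and 548 CPM in wt replicates 1 to 4.

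Every ntCZC library lay above every tissue library except tissue wt replicate 2, at 1587 CPM, without which tissue averaged 734 ± 139 CPM (n = 6). Such a separation without that library held for 2.71% of 15312 detected genes. With all libraries, 0 of the 3 members tested passed by edgeR or DESeq2 (0 at an unadjusted p under 0.05), against 27.7% of the 4400 genes tested. Lgals3 differed by 0.31 ± 0.18 log2 (edgeR quasi-likelihood, adjusted p = 0.189), or 0.50 (adjusted p = 0.0077) without tissue wt replicate 2. Lgals1 differed by -0.54 ± 0.33 (adjusted p = 0.229) and Lgals8 by 0.29 ± 0.33 (adjusted p = 0.527).

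Lgals3 was found in 93.4% of ntCZC and 73.2% of tissue nonclassical monocyte-like cells, at median depths of 5105 and 2166 UMIs. After each cell was thinned to 1000 UMIs, which left 845 of 859 and 509 of 520 cells, the shares were 65.1 ± 7.24% and 54.7 ± 11.6%. In T cell-like cells, which make little galectin-3, the thinned share was 12.2 ± 12.2% in tissue, and 7.93 ± 2.40% without wt replicate 2. In tissue the share of nonclassical monocyte-like cells was thus above that of T cell-like cells. How much of either share came from free RNA was not tested.

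Classical monocyte-like cells, the inflammatory Ly6c-high type, reached 20 cells in 3 ntCZC libraries. Their Lgals3 level was 2948 CPM in het replicate 4, 2534 CPM in null replicate 2 and 2718 CPM in wt replicate 1. In 8 tissue libraries it ran from 1334 to 2429 CPM, and to 4935 CPM in wt replicate 2. The thinned share of positive cells was 88.4% in ntCZC and 81.0% in tissue.

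B cell-like cells held little Lgals3. In ntCZC it was 147, 18.2, 20.5 and 33.7 CPM in het replicates 1 to 4, and 0 and 36.9 CPM in null replicates 2 and 4. In tissue it was 159 and 66.3 CPM in het, 172 and 117 CPM in null, and 88.9, 1744, 130 and 65.7 CPM in wt replicates 1 to 4, and in PBMC 30.6 CPM. The ranges of ntCZC and tissue overlapped through het replicate 1 of ntCZC.

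Of the 4 members tested in B cell-like cells 1 passed, against 34.8% of 4691 genes (18.6% as lower). Lgals3 differed by -2.23 ± 0.80 log2 (edgeR quasi-likelihood, adjusted p = 0.039). In ntCZC, B cell-like cells held 4.39%, 0.365%, 7.29% and 0.0677% of 774, 274, 288 and 2956 Lgals3 UMIs in het replicates 1 to 4. They held 0% of 2931 and 0.555% of 1262 in null replicates 2 and 4. With so few UMIs, the filter on low counts was passed mainly through tissue. That left little room for a call as higher, so the value is a description. The call did not hold without tissue wt replicate 2 (-1.04, adjusted p = 0.081), with the stricter gate (-1.02, adjusted p = 0.47), or without any of ntCZC het replicates 2, 3 and 4, ntCZC null replicate 2 or tissue null replicate 3 (adjusted p from 0.063 to 0.076). The thinned share of positive cells was 4.6 ± 3.93% in ntCZC and 11.9 ± 13% in tissue. In tissue the share in T cell-like cells was of the same size, at 12.2 ± 12.2%, and without wt replicate 2 the shares were 7.45 ± 3.06% and 7.93 ± 2.40%. In ntCZC 0 of 85 T cell-like cells held a UMI after thinning. The part of free RNA in these shares was not tested.

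Lgals1 in the same cells was 1334 CPM in ntCZC het replicate 1 and at most 150 CPM in the other 5 ntCZC libraries. In tissue B cell-like cells it ran from 47.7 to 386 CPM. The difference was 0.78 ± 0.84 log2 (adjusted p = 0.499), and -1.79 without ntCZC het replicate 1, so that library decided its sign. The library rests on 29 cells of this class.

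T cell-like cells showed Lgals1 rather than Lgals3. Their Lgals1 was 299 and 511 CPM in 2 ntCZC libraries, 260 to 1202 CPM in 8 tissue libraries and 215 CPM in PBMC. Their Lgals3 was 6.87 and 91.6 CPM in ntCZC, 1.67 CPM in PBMC and 73.7 to 143 CPM in tissue, apart from 2998 CPM in wt replicate 2. In PBMC, the level of Lgals1 in 40 NK cell-like cells, cytotoxic lymphocytes, was 2625 CPM.

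**Figure D2:**
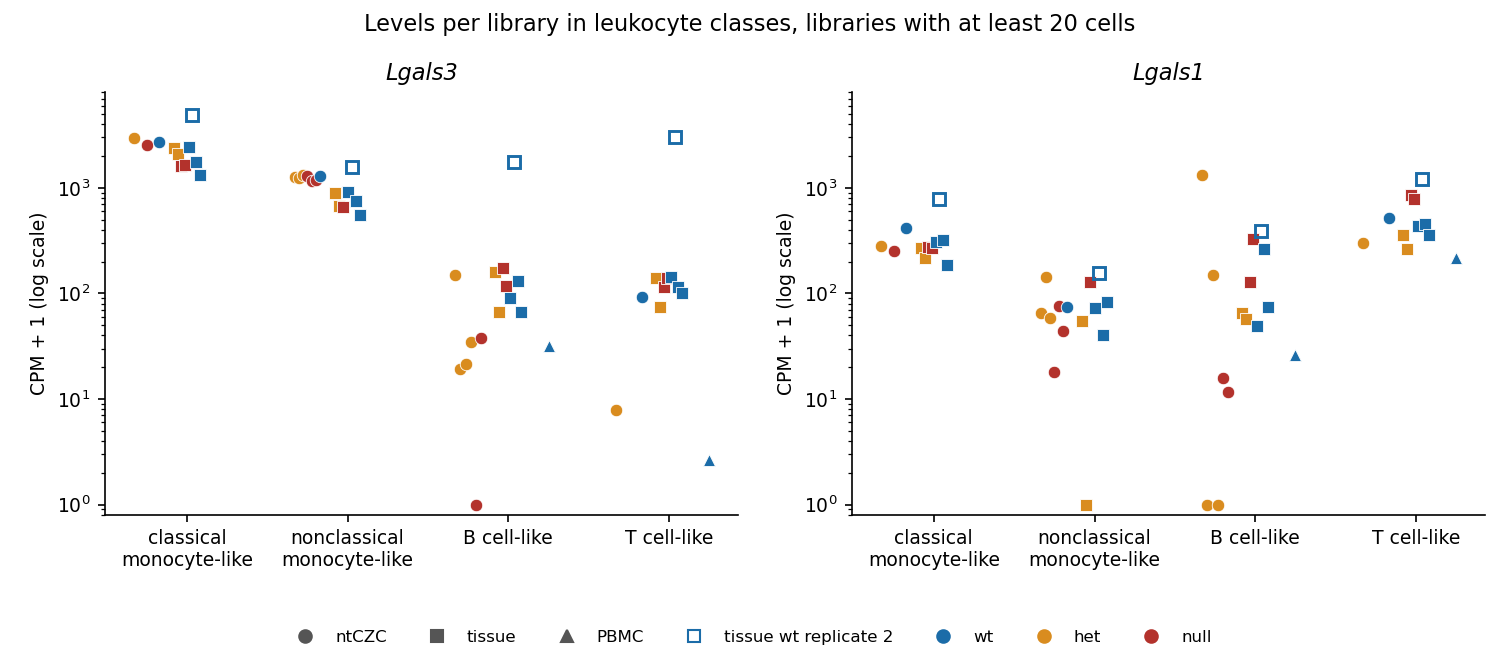
Lgals3 (left) and Lgals1 (right) in each library with at least 20 cells of a leukocyte class, as CPM + 1 on a log axis, with circles for ntCZC, squares for tissue, triangles for PBMC, an open square for tissue wt replicate 2 and colours for genotype labels. Lgals3 falls from classical monocyte-like to lymphocyte-like classes in every library that holds both, and tissue wt replicate 2 lies above the other tissue libraries in all 4 classes, with 1744 CPM in B cell-like and 2998 CPM in T cell-like cells.

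No galectin passed the test between Nalcn genotype labels. In ntCZC, Lgals3 averaged 796 ± 1116 CPM in wt (n = 2), 713 ± 405 CPM in het (n = 4) and 761 ± 426 CPM in null (n = 4), a spread within groups far wider than the differences between them. Of the 5 members tested, 0 passed in null against wt, where 0% of 9379 genes passed (360 had an unadjusted p under 0.05, and DESeq2 called 14), and 0 passed in het against wt, where 0.107% passed (0.0107% as higher). In null against het, 0 members and 0% of genes passed (686 at an unadjusted p under 0.05, 23 by DESeq2). DESeq2 called 0 members in all 3.

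The log2 difference of Lgals3 in ntCZC was 1.45 ± 1.04 for null against wt (edgeR quasi-likelihood, adjusted p = 0.983), 0.12 ± 0.79 for het against wt and 1.34 ± 0.83 for null against het (adjusted p = 0.809). The fitted values, which take sex and TMM scaling into account, did not follow the CPM means, where null lay below wt. Both wt libraries were male, while null replicates 1, 3 and 4 and het replicate 3 were female. Lgals3 was 164 to 703 CPM in the female libraries and 738 to 1585 CPM in the male ones, apart from 6.19 CPM in wt replicate 3. The sex term rested on 1 female het and 1 male null library, so sex and label cannot be fully told apart. Haemoglobin took 25.2%, 32.4% and 25.3% of UMIs in null replicates 1, 3 and 4 and 6.16% in null replicate 2, against 0.333% to 6.04% in het and 1.67% and 73.5% in wt. With haemoglobin genes left out of the counts the null against het difference was 1.31 (adjusted p = 0.802). Only with ntCZC wt replicate 1 left out, so that wt is the haemoglobin-rich library alone, did Lgals3 pass (6.60, adjusted p = 0.014, and 5.26 for het, adjusted p = 0.025). That library held 1 UMI of Lgals3 and is there assumed to vary like the other groups, so these values are no measure of the genotype label. Lgals3bp was 29.0 to 120 CPM in the 4 null libraries and 12.4 and 22.3 CPM in the 2 wt libraries, with no overlap, which held for 4.74% of detected genes. Its log2 difference was 0.86 ± 0.92 (adjusted p = 0.983).

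In tissue, 0 of the 8 members passed in either comparison. Of 17863 genes 0.0112% passed in null against wt (1621 at an unadjusted p under 0.05, 342 by DESeq2), and 0% in het against wt (1367, and 73 by DESeq2). Lgals3 averaged 984 ± 1348 CPM in wt (n = 5), 385 ± 191 CPM in wt without replicate 2, 514 ± 90.5 CPM in het and 454 ± 146 CPM in null (n = 2 each). Its log2 difference was -0.60 ± 0.84 in null (adjusted p = 0.852) and -1.40 ± 0.85 in het (adjusted p = 0.719), and the null value turned positive, to 0.074, without wt replicate 2. Lgals7, lowest in number of UMIs, differed by 0.73 ± 0.46 in null (adjusted p = 0.665).

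Within classes of tissue the same comparisons gave 0 members passing in macrophage-like, fibroblast-like and endothelial-like cells. In macrophage-like cells 0% of 6400 genes passed for each label (221 for null and 155 for het at an unadjusted p under 0.05, with 3 and 0 by DESeq2), and Lgals3 differed by -0.29 ± 0.65 in null and -0.30 ± 0.67 in het. Lgals9 there was lower in het by an unadjusted p of 0.024 in edgeR's test (-0.93 ± 0.36 log2, adjusted p = 1). In fibroblast-like cells 0.202% of 3956 genes passed for null and 0% for het (215 at an unadjusted p under 0.05, 0 by DESeq2), with Lgals3 at 0.25 ± 0.75 and -1.69 ± 0.82. Without the 3 libraries that stand apart, Lgals3 in fibroblast-like cells reached 2.68 (adjusted p = 0.0036), but this leaves 1 null library, which is assumed to vary like the other groups.

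In endothelial-like cells 0% of 12573 genes passed for either label (623 for null and 838 for het at an unadjusted p under 0.05, 22 each by DESeq2). Lgals3 differed by -1.05 ± 1.34 in null and -4.06 ± 1.46 in het (unadjusted p = 0.019 in edgeR's fit, adjusted p = 0.714). The wt group held tissue wt replicate 2 at 2345 CPM, against 36.7 to 170 CPM in the 8 other libraries, and without it the differences were 0.65 in null and -1.03 in het (adjusted p = 0.739 and 1). With no filter on low counts the het difference passed the test (-4.07, adjusted p = 0.006).

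Among tissue classes, the galectins differed in where they were highest. Lgals3 was highest in alveolar macrophage-like, macrophage-like and classical monocyte-like cells, Lgals1 was highest in mesothelial-like, fibroblast-like and smooth muscle or pericyte-like cells, Lgals2 and Lgals4 in gastric mucous-like cells, Lgals7 in mesothelial-like cells, and Lgals8, Lgals9 and Lgals3bp were spread over many classes. The order below covers 24 classes with at least 20 cells in at least 3 libraries. The ranges of neighbours in that order overlapped for all 23 pairs of neighbours for Lgals1, Lgals3, Lgals3bp, Lgals8 and Lgals9, so their order is a description.

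Alveolar macrophage-like cells, the resident phagocytes of the air spaces, led for Lgals3 with 2643 ± 449 CPM (2124 to 3276 CPM, n = 8 libraries). Macrophage-like cells followed with 2570 ± 2230 CPM (646 to 7936 CPM, n = 9) and classical monocyte-like cells with 2273 ± 1143 CPM. Without tissue wt replicate 2, over 19 classes, these were 2610 ± 474, 1899 ± 1028 and 1892 ± 418 CPM, and the next class, nonclassical monocyte-like cells at 734 ± 139 CPM, no longer overlapped with the classical ones. Mesothelial-like cells, the lining of organ surfaces, followed at 610 ± 304 CPM and neutrophil-like cells at 493 ± 191 CPM. Fibroblast-like, T cell-like, B cell-like, proximal tubule-like and endothelial-like cells averaged between 80.0 and 148 CPM.

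Lgals1 was highest in mesothelial-like cells at 1295 ± 587 CPM, fibroblast-like cells at 1085 ± 427 CPM and smooth muscle or pericyte-like cells at 813 ± 270 CPM. Macrophage-like cells at 743 ± 567 CPM, NK cell-like cells at 644 ± 199 CPM and T cell-like cells at 587 ± 325 CPM came next. Lgals1 and Lgals3 thus differed in which class led, while mesothelial-like and macrophage-like cells held much of both.

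Lgals2 reached 2276 ± 1365 CPM in gastric mucous-like cells, the mucus-secreting cells of the stomach surface and neck. The libraries were at 4844 CPM in het replicate 2, 2164 and 882 CPM in null replicates 2 and 3, and 1980, 1453 and 2336 CPM in wt replicates 2 to 4. Mesothelial-like cells were next with 288 ± 209 CPM (80.5 to 582 CPM), and the other classes averaged at most 13.7 CPM. Neither of these leading classes overlapped with the class after it.

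Lgals4 was 212 ± 94.2 CPM in gastric mucous-like cells (44.7 to 325 CPM), and smooth muscle or pericyte-like cells, next in order, averaged 12.8 CPM. Lgals7 was 225 ± 65.8 CPM in mesothelial-like cells (110 to 299 CPM), and T cell-like cells, next in order, averaged 4.53 CPM. Each leading class lay above the highest library of the class after it.

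Lgals8 was 70.6 ± 10.3 CPM in alveolar macrophage-like cells and 51.9 ± 7.54 CPM in endothelial-like cells. Lgals9 was 155 ± 82.3 CPM in gastric mucous-like and 153 ± 28.4 CPM in endothelial-like cells, which line vessels, and 96.9 ± 28.9 CPM in fibroblast-like cells. Lgals3bp was 153 ± 67.9 CPM in macrophage-like and 111 ± 37.3 CPM in ciliated-like cells. In the only ntCZC library with 20 or more macrophage-like cells, het replicate 3 with 21 of them, Lgals9 was 280 CPM, Lgals3bp 293 CPM and Lgals3 463 CPM.

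**Figure D3:**
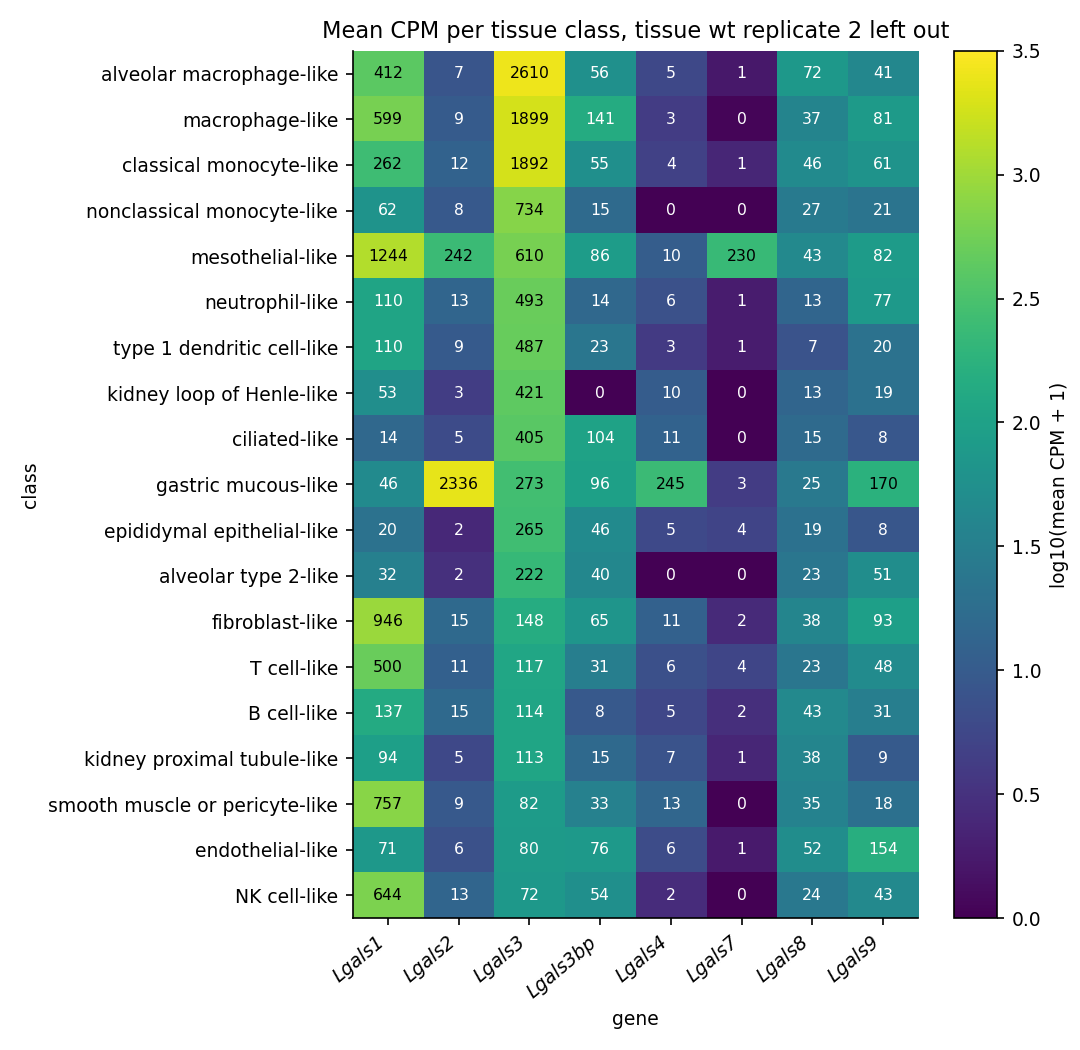
Mean CPM of the 8 genes in tissue classes with at least 3 libraries of at least 20 cells, tissue wt replicate 2 left out, with colour for log10(mean CPM + 1) and the mean printed in each cell. Lgals3 is 2610, 1899 and 1892 CPM in its 3 leading classes, Lgals2 and Lgals4 peak in gastric mucous-like cells at 2336 and 245 CPM, and Lgals7 peaks in mesothelial-like cells at 230 CPM.

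Myeloid classes of the same tissue libraries were then compared with the library as a block. From classical monocyte-like to macrophage-like cells, Lgals3bp and Lgals1 rose and Lgals3 did not pass the test. Of the 5 members tested 2 passed as higher, against 36.6% of 6608 genes (18.7% as higher). Lgals3bp was 153 ± 72.5 CPM in macrophage-like and 63.5 ± 31.3 CPM in classical monocyte-like cells (SD, n = 8), a log2 difference of 1.36 ± 0.19 (edgeR quasi-likelihood, adjusted p = 1.3e-05), higher in 7 of 8 libraries. Lgals1 was 790 ± 587 and 327 ± 189 CPM, a difference of 1.05 ± 0.22 (adjusted p = 0.0011), also higher in 7 of 8, but 0.66 (adjusted p = 0.061) with the stricter gate. Lgals3 was higher in 4 of 8 libraries and differed by 0.11 ± 0.17 (adjusted p = 0.655).

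From macrophage-like to alveolar macrophage-like cells, Lgals8 rose while Lgals9 and Lgals3bp fell. Of the 6 members tested 3 passed, against 41.4% of 9352 genes. Lgals8 was 70.6 ± 10.3 against 37.7 ± 7.73 CPM, a difference of 0.76 ± 0.14 log2 (edgeR quasi-likelihood, adjusted p = 3.1e-04), higher in 8 of 8 libraries, as were 9.1% of detected genes. Lgals9 was 42.9 ± 8.18 against 79.0 ± 23.1 CPM (-0.99 ± 0.14, adjusted p = 2.1e-05) and Lgals3bp 55.6 ± 10.3 against 153 ± 72.5 CPM (-1.49 ± 0.21, adjusted p = 2.2e-05), both lower in 8 of 8, as were 5.57% of genes. Lgals3 differed by 0.13 ± 0.25 (adjusted p = 0.721) and Lgals1 by -0.64 ± 0.27 (adjusted p = 0.076). Lgals1 passed the test, between -0.81 and -0.83, when wt replicate 1, wt replicate 4 or null replicate 3 was left out, and also with no filter on low counts (-0.54, adjusted p = 6.8e-04).

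In nonclassical against classical monocyte-like cells, all 5 members tested passed as lower (4 in the settings in which Lgals8 was lost, given below), against 17.9% of 5611 genes that passed as lower (28.5% in either direction). Of these, Lgals9, Lgals3bp and Lgals8 had 33, 23 and 49 UMIs in nonclassical and 482, 362 and 254 UMIs in classical monocyte-like cells. They passed the filter on low counts mainly through the classical cells. That left little room for a call as higher, so the count of members is a description. Lgals3 was 856 ± 347 against 2365 ± 1202 CPM (SD, n = 7), a difference of -1.60 ± 0.10 log2 (edgeR quasi-likelihood, adjusted p = 1.8e-17). Lgals1 was 75.4 ± 52.4 against 334 ± 203 CPM (-2.32 ± 0.19, adjusted p = 1.5e-13). Lgals9 was 24.1 ± 16.3 against 77.9 ± 35.1 CPM (-1.98 ± 0.25, adjusted p = 3.0e-08) and Lgals3bp 16.1 ± 21.7 against 64.8 ± 33.6 CPM (-1.92 ± 0.31, adjusted p = 4.1e-06). These 4 were lower in 7 of 7 libraries, as were 3.42% of detected genes. Lgals8 was 26.1 ± 20.5 against 47.4 ± 12.4 CPM and lower in 6 of 7 (-0.82 ± 0.27, adjusted p = 0.017), a call lost without wt replicate 2 (-0.54, adjusted p = 0.184), with DESeq2 (-0.91, adjusted p = 0.082), with the stricter gate (-0.74, adjusted p = 0.225) and without the 3 libraries that stand apart (-0.46, adjusted p = 0.276).

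The spread of Lgals3 over tissue libraries rested on tissue wt replicate 2. The highest library held 17.4 times the level of the lowest, whereas the second highest held 3.27 times the lowest, and replicate 2 exceeded the second by 5.32 times. The 2 tissue libraries without a group were at 854 and 346 CPM. In replicate 2, 75.3% of barcodes held Lgals3, against 13.8% to 35% in the other grouped tissue libraries.

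**Figure D4:**
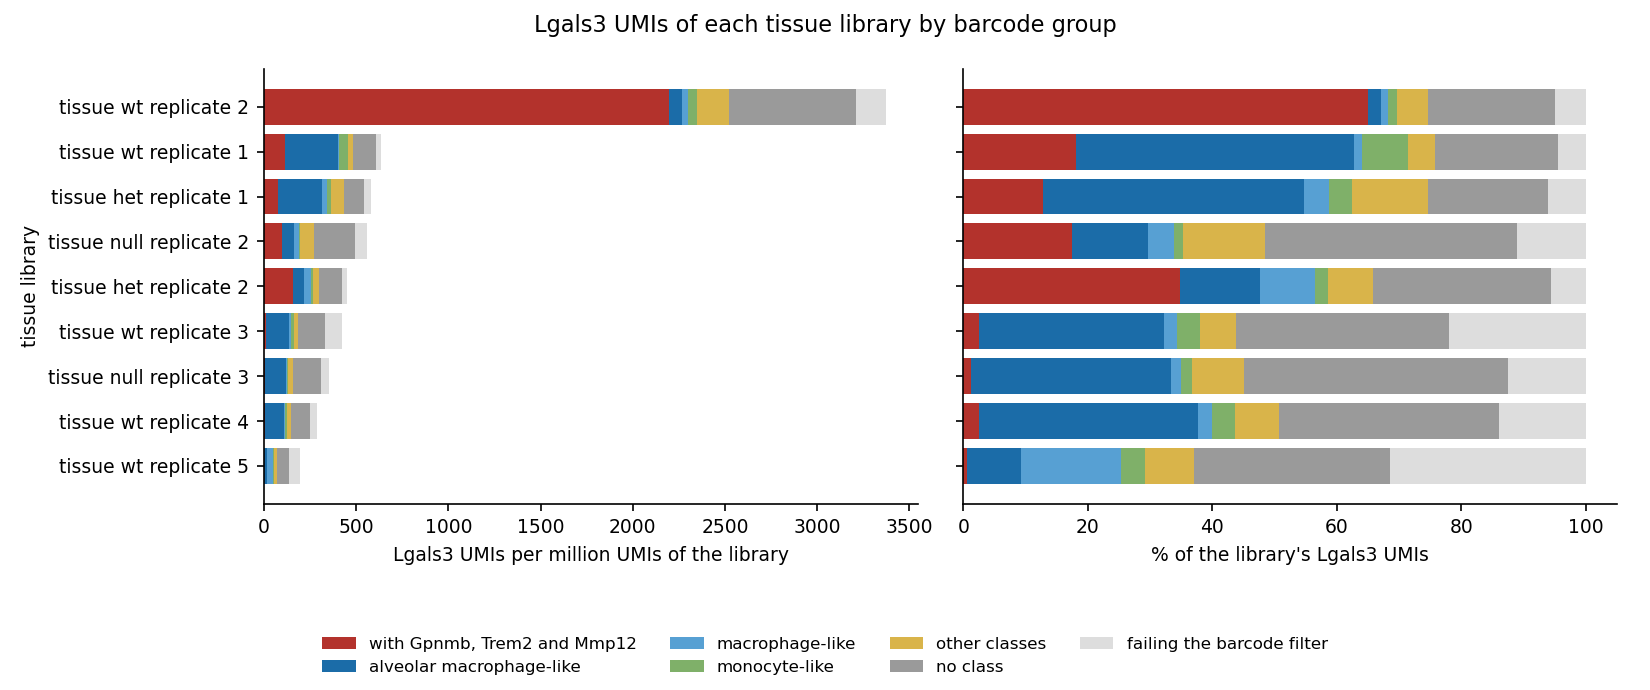
Lgals3 UMIs of each grouped tissue library split by barcode group, in CPM of the library (left) and as a percentage of the library's Lgals3 UMIs (right). Barcodes with UMIs of Gpnmb, Trem2 and Mmp12 hold 65.1% of the Lgals3 UMIs of tissue wt replicate 2, while alveolar macrophage-like barcodes hold up to 44.7% in the others.

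Most of the Lgals3 UMIs of replicate 2 sat in barcodes that held UMIs of Gpnmb, Trem2 and Mmp12, genes known from lipid-laden macrophages, a set chosen after the data were seen. In replicate 2, 2032 such barcodes, 11.1% of those passing the quality filter, held 65.1% of its Lgals3 UMIs. They contributed 2197 of its 3376 CPM. With such barcodes left out of every library, replicate 2 still held 1464 CPM, against 194 to 529 CPM in the other grouped tissue libraries. A barcode with more UMIs is more likely to hold all 3 genes, and depth was not matched. In the other grouped tissue libraries 1 to 60 such barcodes held between 0.540% and 34.9% of Lgals3 UMIs. By gate, 75.2% of the replicate 2 barcodes of this kind had no class and 6.30% were macrophage-like. Others were gated as endothelial-like (4.38%), neutrophil-like (3.00%), kidney proximal tubule-like (2.51%) and T cell-like (2.31%), among further classes.

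With the barcodes of that set counted apart, alveolar macrophage-like cells held more Lgals3 UMIs than macrophage-like or monocyte-like cells in 7 of the 8 other grouped libraries, with 44.7% in wt replicate 1, 42.0% in het replicate 1, 35.2% in wt replicate 4, 32.1% in null replicate 3 and 29.7% in wt replicate 3. They held 12.8% in het replicate 2, 12.2% in null replicate 2 and 8.76% in wt replicate 5, which had 8 such cells and in which macrophage-like cells held 16.0%. In wt replicate 2 they held 2.1%. Barcodes with no class held 19.3% to 42.3% in the grouped tissue libraries. By the gate alone, with that set not counted apart, macrophage-like cells held more than alveolar macrophage-like cells in het replicate 2 (22.5% and 12.8%). The same held by the gate alone in wt replicate 5 (16.6% and 8.76%).

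Within classes, replicate 2 had more Lgals3 than any other grouped tissue library in 16 of the 18 classes it could be compared in. The ratio to the median of the other libraries had a median of 8.40 over these classes (1.19 to 32.4). The exceptions were alveolar macrophage-like cells at 2874 CPM and mesothelial-like cells at 695 CPM, both inside the range of the others. Lgals1 was above all others in 17 of 18 classes (median ratio 4.69), Lgals3bp in 11, Lgals9 in 8, Lgals8 in 5, Lgals7 in 4, Lgals4 in 1 and Lgals2 in 0. The share of all genes for which this library was highest in a class was not counted. These counts therefore describe the library and are no result about the galectins.

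In this library Gpnmb, Trem2, Mmp12, Fabp5 and Spp1, all known from lipid-laden macrophages, lay above the range of the other libraries in B cell-like, T cell-like, endothelial-like and kidney proximal tubule-like cells. In macrophage-like cells Trem2 lay inside that range, at 1040 CPM, and in alveolar macrophage-like cells, where Lgals3 was inside, all but Mmp12 (54.2 CPM) lay above it. In its endothelial-like cells Gpnmb was 759 CPM, against 0 to 35.4 CPM in the 8 other libraries, Fabp5 was 1655 CPM against 41.3 to 121 CPM, and Spp1 was 2734 CPM against 116 to 290 CPM. In its T cell-like cells Gpnmb was 985 CPM against 0 to 16.0 CPM. Of its 18242 barcodes passing the filter, 5938 held at least 3 markers of a second class, as did 113 of 287 in wt replicate 5, 2082 of 9364 in null replicate 3 and 1170 of 5601 in wt replicate 3. The part of free RNA or of doublets in these levels was not tested.

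**Figure D5:**
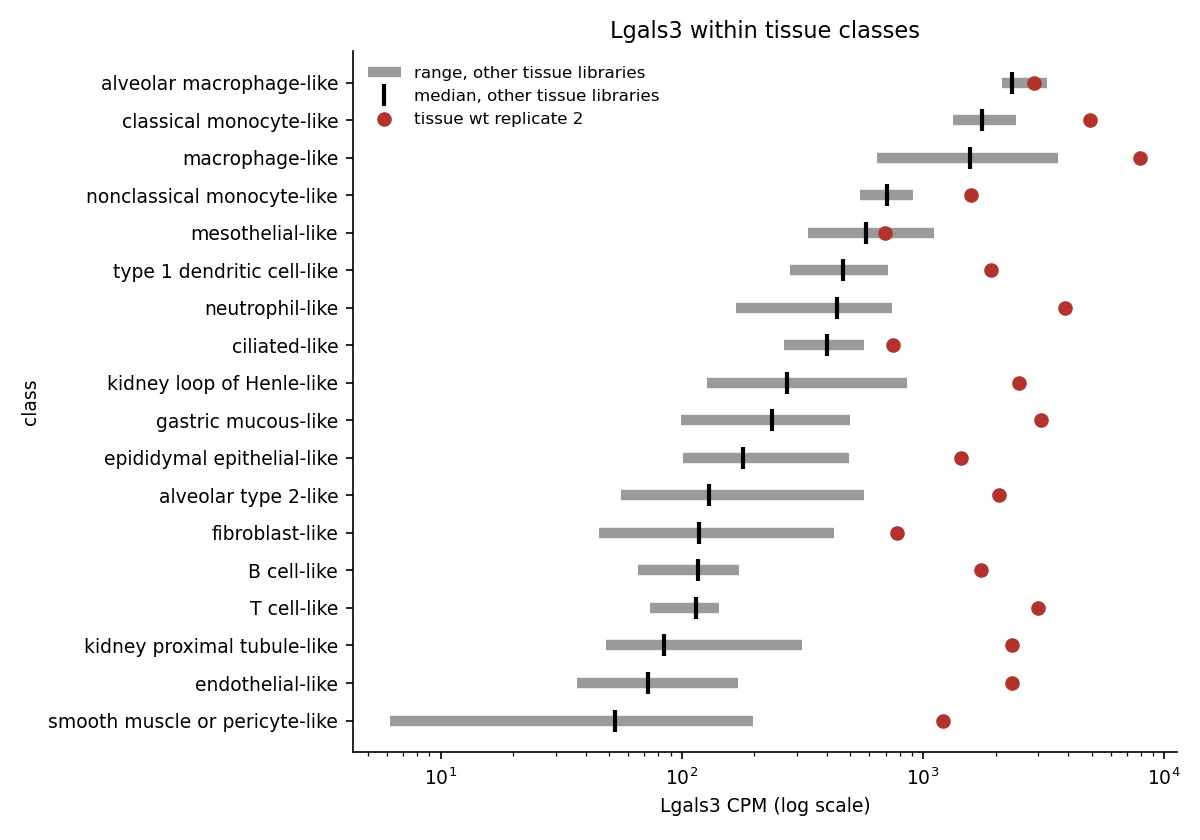
Lgals3 CPM on a log axis in 18 tissue classes, with grey bars for the range and black ticks for the median of the other grouped tissue libraries and red points for tissue wt replicate 2. The red point lies beyond the grey bar in 16 classes and within it in alveolar macrophage-like and mesothelial-like cells.

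The genes whose class means were most like those of each galectin were found by Pearson's r of log2(CPM + 1) over the 24 tissue classes, among 8577 genes that reached 50 CPM in a class. These points share libraries and depth, and r is given as a description. For Lgals3 they were Cd68, a lysosomal glycoprotein of macrophages (r = 0.91), Fcgr1, a receptor for immunoglobulin G (0.89), and Ms4a6d (0.88), and without wt replicate 2 they were Csf2ra, the receptor for the growth factor GM-CSF (0.83), Sgpl1 and Psap (both 0.82). For Lgals1 they were Inf2 (0.74), Vim, the intermediate filament of mesenchyme (0.73), and Arhgap6 (0.68), and without wt replicate 2 Vim (0.81), Emp3 (0.78) and Mmd (0.76). For Lgals2 they were Myo1a, a brush border myosin (0.92), Pla2g10 (0.88) and Muc6, a gastric gland mucin (0.87). For Lgals7 they were Upk3b (0.91), Pcnx2 (0.91) and Lrrn4 (0.90), of which Upk3b and Lrrn4 are among the markers that gated mesothelial-like cells. For Lgals4, Lgals8, Lgals9 and Lgals3bp the first genes were Tesc (0.80), Tspan5 (0.82), Eng, an endothelial receptor (0.76), and Pwwp2b (0.75). The 3 genes of Lgals2 and of Lgals7 were the same without wt replicate 2, and for the last 4 members the first gene changed.

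Genes that act with galectins were given by 3 lists, put together with earlier results of these data known. Between ntCZC and tissue, all 12 glycoproteins bound by galectins were tested, and 4 passed as higher in ntCZC and 4 as lower, a share like the 66% of all genes that passed, with a median log2 difference of -0.083 against -0.13 for all genes. Itgam, an integrin subunit of myeloid cells, averaged 252 CPM in ntCZC and 33.4 CPM in tissue (2.75 ± 0.42, edgeR adjusted p = 9.0e-06), and Itgb1, the beta-1 integrin, 334 and 172 CPM (0.88 ± 0.17, adjusted p = 1.2e-04). Nrp1, a co-receptor of vessels and nerves, averaged 29.5 and 107 CPM (-1.91 ± 0.20, adjusted p = 9.5e-08), and P4hb, a disulphide isomerase, 85.2 and 145 CPM (-0.81 ± 0.17, adjusted p = 3.0e-04).

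Of 13 enzymes that build or cap galectin ligands, 2 passed as higher in ntCZC and 5 as lower (median -0.13), beside 27.5% and 38.5% of all genes. St3gal4, which caps galactose with sialic acid, averaged 89.1 CPM in ntCZC and 18.5 CPM in tissue (2.24 ± 0.14, edgeR adjusted p = 1.1e-10). Gcnt1, which branches O-linked chains, averaged 7.06 and 80.0 CPM (-3.47 ± 0.38, adjusted p = 1.2e-07), and B4galt1, which adds galactose, 27.3 and 57.3 CPM (-1.09 ± 0.19, adjusted p = 3.4e-05). Of the other galectin-fold genes 1 was tested, Lgalsl, which averaged 3.07 and 8.89 CPM and passed as lower (-1.73 ± 0.30, adjusted p = 3.8e-05). It ran from 0 to 6.19 CPM in ntCZC and from 6.30 to 12.0 CPM in tissue. Like Lgals4, it passed the filter on low counts through tissue and could only come out as lower, so nothing is read from this call.

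Within B cell-like cells 5 of 7 glycoproteins and 4 of 8 enzymes tested passed as lower in ntCZC and 0 as higher, beside 18.6% and 16.2% of all genes. Within nonclassical monocyte-like cells 3 of 11 glycoproteins passed as lower, and of 6 enzymes 1 passed as higher and 1 as lower, beside 15.2% of all genes as lower and 12.5% as higher. Between genotype labels 0 genes of the lists passed in any of the 11 comparisons. From classical monocyte-like to macrophage-like cells 6 of 12 glycoproteins rose and 3 fell, and 7 of 13 enzymes rose and 4 fell, beside 18.7% and 17.8% of all genes. From macrophage-like to alveolar macrophage-like cells 3 of 12 glycoproteins rose and 4 fell, and 5 of 13 enzymes rose and 1 fell, beside 20.3% and 21.1%. In nonclassical against classical monocyte-like cells 3 of 11 glycoproteins were higher and 6 lower, and of 10 enzymes 0 were higher and 2 lower, beside 10.6% and 17.9%.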

How the data were processed

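Per the labels and file headers, the authors aligned droplet 3′ reads (10x) to mm10 with Cell Ranger (2.1.1 in the submitters' processing notes, 3.0.2 in the matrix headers) and deposited raw UMI counts (whole numbers) of each gene in each barcode, not normalized. All 22 libraries were read, and groups came from the labels. Barcodes with 200 or more genes and no more than 25% of UMIs from mitochondrial genes were gated by 3 or more markers of a class and a lead of 2 markers, over 35 classes, and a library entered a class with at least 20 cells. No doublet caller was run, and how many barcodes with at least 3 markers of a second class passed the gate was not counted. The members were named, and the lists and tests chosen, with earlier results of these data known, although the rule for the members used no measured value.

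Counts were summed per library, or per library and class, and tested with edgeR 4.0.16 in R 4.3.3 (TMM scaling, its default filter on low counts, the quasi-likelihood test, sex as covariate between libraries and library as block between classes, Benjamini-Hochberg adjustment at 0.05 over all genes). DESeq2 1.42.0 was an alternative. The steps were tested on simulated data. Named genes were the 8 members and, per list, up to 4 genes past the threshold in order of p between ntCZC and tissue, and 3 like genes per member. Exact 95% intervals and limits for a count of 0 (3 counts) cover counting error only. In the shallowest library (161541 UMIs) a count of 0 allows up to 18.6 CPM. Python 3.11.15, numpy 2.4.6, scipy 1.17.1 and pandas 2.3.3 were used, and coordinates came from GENCODE vM21.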

Additional observations from a re-analysis of the deposited data

Results flagged for a closer look

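Among 103 groups of 4 to 10 libraries, 42 (40.8%) held a highest or lowest library far from the others by Dixon's criterion at 95%. The criterion's rate of 1 in 20 holds for independent groups of normally distributed values. These groups shared libraries, and a single nonzero value in a group was always flagged, so 40.8% is not compared with that rate. Of the 42 flags, 30 were tissue wt replicate 2. Over all barcodes that library was far above the others, both of all tissue and of the wt label, for Lgals3 (3376 CPM), Lgals1 (789 CPM) and Lgals3bp (102 CPM).

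Within classes its Lgals3 was 1587 CPM in nonclassical monocyte-like, 4935 CPM in classical monocyte-like, 7936 CPM in macrophage-like, 1919 CPM in type 1 dendritic cell-like and 3861 CPM in neutrophil-like cells. It was 1744 CPM in B cell-like, 2998 CPM in T cell-like, 2345 CPM in endothelial-like and 1211 CPM in smooth muscle or pericyte-like cells. In epithelia its Lgals3 was 2334 CPM in kidney proximal tubule-like, 2075 CPM in alveolar type 2-like, 3093 CPM in gastric mucous-like and 1435 CPM in epididymal epithelial-like cells.

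Its Lgals1 was far above the others at 782 CPM in classical monocyte-like, 385 CPM in type 1 dendritic cell-like, 748 CPM in neutrophil-like, 502 CPM in endothelial-like and 2060 CPM in fibroblast-like cells. The same held at 534 CPM in kidney proximal tubule-like, 538 CPM in alveolar type 2-like, 118 CPM in ciliated-like, 612 CPM in gastric mucous-like and 286 CPM in epididymal epithelial-like cells. Its Lgals9 was 28.0 CPM in epididymal epithelial-like cells, where the other libraries reached 8.62 CPM.

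In ntCZC, het replicate 1 was far above the others for Lgals1 over all barcodes (465 CPM, among all ntCZC and among het) and in B cell-like cells (1334 CPM), and for Lgals3 in B cell-like cells (147 CPM). Null replicate 1 was far above for Lgals2 (4.99 CPM, the others at 0, among all ntCZC and among null) and, among null, for Lgals3bp (120 CPM). The single UMI of Lgals7 in het replicate 4 (0.385 CPM) and in null replicate 2 (0.469 CPM) stood out because the rest of each group was at 0. The haemoglobin-rich wt replicate 3 was far below the others for Lgals8 (6.19 CPM).

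In tissue, wt replicate 4 was far above the other wt libraries for Lgals7 (5.24 CPM) and above the other libraries for Lgals3 in NK cell-like cells (193 CPM, the others 21.7 to 46.0 CPM). In the tissue libraries that entered no comparison, the one without a group numbered 1 held 37.0 CPM of Lgals8 and 98.8 CPM of Lgals9, above the highest wt library at 36.7 and 76.9 CPM.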

How the results depend on the processing

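Over the alternatives other than leaving out a library, the number of galectins passing the test stayed within 1.5 times in 105 of 116 values. It moved in 11, and over left-out libraries in 9 of 179 values. Those 179 include, for each grouped tissue library left out, the mean Lgals3 CPM of tissue, which is no count. That mean was taken as unmoved against an SD of 991 CPM, although it went from 762 to 435 CPM without wt replicate 2. For the single genes followed, 164 of 197 values kept direction and call, 14 turned sign, 8 lost and 11 gained a call. Over left-out libraries these were 283 of 317 kept, 21 turned, 7 lost and 6 gained. The alternatives were listed at the outset, except leaving out the 3 libraries that stand apart, omitting tissue wt replicate 2 from class levels and the split of Lgals3 UMIs by barcode, which were chosen after seeing the data. The causes were not tested.

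With no filter on low counts, 2 galectins passed in nonclassical monocyte-like cells (0 with the filter) and 4 in B cell-like cells (1 with it). For het, 1 each passed in fibroblast-like and endothelial-like cells (0 with the filter). More of all genes also passed in these comparisons without the filter, as given below, so these counts are no result about the galectins. In B cell-like cells 0 passed with DESeq2 (Lgals3 at -2.48, with no adjusted p given), the stricter gate, the replicate block or without the 3 libraries (-0.87, adjusted p = 0.148). Without those libraries 1 passed in nonclassical monocyte-like cells and 1 for null in fibroblast-like cells. In macrophage-like against classical monocyte-like cells 1 passed with the stricter gate (2 otherwise). Leaving out libraries gave 0 to 1 passing in nonclassical monocyte-like cells, in B cell-like cells, and in ntCZC for null and het against wt.

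Lgals3 turned sign as follows. In ntCZC against tissue it was -0.12 with DESeq2's scaling, -0.13 with DESeq2, -0.49 with the 20% mitochondrial limit, -0.14 without the sex covariate, and -0.071 to 0.64 over left-out libraries. For ntCZC het against wt it was -0.046 without the sex covariate and -0.77 to 5.26 over left-out libraries. In tissue macrophage-like cells it was 0.83 for null without the 3 libraries, and for het 0.19 with the stricter gate, 0.15 without the sex covariate and 1.04 without the 3 libraries, with ranges over left-out libraries of -0.57 to 0.42 and -0.59 to 0.89. In fibroblast-like cells it was -0.026 without the sex covariate and -0.45 with the replicate block for null (-0.032 to 1.5 over left-out libraries), and 0.64 for het without the 3 libraries. In endothelial-like cells it was 1.12 for null without the 3 libraries (-2.29 to 0.65), and in all tissue barcodes -1.55 to 0.25 for null. In macrophage-like against classical monocyte-like cells it was -0.22 with the stricter gate, and in alveolar macrophage-like against macrophage-like cells -0.034 to 0.37 over left-out libraries. Lgals1 in B cell-like cells ran from -1.79 to 1.21 over left-out libraries.

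The replicate numbers did not pair the libraries. Same-numbered libraries correlated between -0.30 and 0.17, and 3 of 10, 0 of 7 and 1 of 12 libraries correlated best with their own number within ntCZC, within tissue and between the kinds. With the replicate block the genes passing went from 1217 to 691 in nonclassical monocyte-like cells, from 1632 to 738 in B cell-like cells, from 10 to 0 for ntCZC het against wt and from 2 to 0 for tissue null against wt. They went from 8 to 21 and from 0 to 21 for null and het in fibroblast-like cells, and from 0 to 2 for het in macrophage-like cells. In ntCZC against tissue 3 galectins passed with the block. These were Lgals2, Lgals4 and, by exclusion, Lgals7, which did not reach the filter without the block. As without the block, nothing is read from this count.

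Counts over all genes moved by more than 1.5 times in further settings. With DESeq2 they went from 2 to 342 and from 0 to 73 for null and het in tissue, from 10 to 106 for ntCZC het against wt, and from 0 to 14 and to 23 for ntCZC null against wt and het. In endothelial-like cells they went from 0 to 22 for each label, and in macrophage-like cells from 0 to 3 for null. Without the filter they went from 1217 to 3014 in nonclassical monocyte-like cells, from 1632 to 2874 in B cell-like cells, from 10 to 92 for ntCZC het against wt, from 0 to 60 for ntCZC null against het and from 2 to 17 for tissue null. In fibroblast-like, endothelial-like and macrophage-like cells the unfiltered counts were 53, 39 and 43 for null and 111, 197 and 68 for het. With the stricter gate they fell from 1217 to 629 and from 1632 to 881 in nonclassical monocyte-like and B cell-like cells, from 2416 to 1449, from 3871 to 2267 and from 1598 to 944 between myeloid classes, and from 8 to 0 for null in fibroblast-like cells. In ntCZC against tissue the genes passing as higher and lower were 3274 and 4586, 2322 and 5580 with DESeq2's scaling, and 2506 and 5714 with DESeq2. Depth in ntCZC went down to 161541 UMIs in wt replicate 3, where a count of 0 allows up to 18.6 CPM.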
